A study of Mus musculus with 13 samples.

Results

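Keratins and genes that mark bile duct cells were followed in mouse liver: Krt23, Krt8, Krt18, Krt19, Krt7, Epcam, Sox9, Spp1 and Cftr. They are 9 genes with 11 probes, taken by the gene name that the scanner files give a probe, out of 39429 probes on the array. Of the 9 genes, 8 passed the filter on dim probes and were tested among 19514 genes or unnamed transcripts, and Epcam did not pass. The genes were chosen with their values on the high-fat diet already known, so the difference between that diet and the standard diet is a description here. Intervals of the model and places past a threshold are given for it, but they are not tests of these genes. Comparisons that share arrays with that difference are not independent of the choice.

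Livers of female C57BL6 mice at 12 weeks of age gave the total RNA for 13 one-colour arrays, placed on 5 slides. The mice of the HFHS group (5 arrays) had the diet labelled HFHS, which the series text calls high fat, together with the vehicle. The ST pollutants group (5 arrays) had the standard diet, labelled ST, with a mixture of 4 pollutants whose names the labels do not give. The ST vehicle group (3 arrays) had the standard diet with the vehicle. The series text can be read as placing the mixture in the high-fat diet, and the sample labels, which place it with the standard diet, were followed. Samples are labelled as biological replicates. Slides 1 to 5 held HFHS and ST pollutants replicates 1 to 5 in that order, and ST vehicle replicates 1, 2 and 3 were on slides 1, 2 and 5.

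Keratins are the intermediate filament proteins of epithelial cells, and a filament needs a type I partner (Krt18, Krt19, Krt23) and a type II partner (Krt7, Krt8). Adult hepatocytes normally build their filaments from Krt8 and Krt18 alone, while cells of the bile ducts add Krt7 and Krt19. Krt23 is scarce in healthy mouse liver and has been described there as a stress-inducible keratin. Bile duct cells are further known by the adhesion molecule Epcam, the transcription factor Sox9, the secreted phosphoprotein osteopontin (Spp1) and the chloride channel Cftr, which drives bile secretion. Several of these genes are also used by ducts and tubules of other organs.

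Each level below is the log2 of a probe's signal minus the 75th percentile of its array, so 0 is a bright probe and one unit is a doubling. Such levels compare arrays for the same probe, not genes with each other. The probe sequences of the 5 keratins and of Spp1 are shown because keratin genes resemble one another. For Krt8 the sequence is that of its second probe. They are given 5′ to 3′ as deposited, with positions on mouse build mm9.
Krt23, probe A_51_P287198, chr11:99339393-99339452, minus strand: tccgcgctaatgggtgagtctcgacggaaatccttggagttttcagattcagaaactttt
Krt8, probe A_55_P2128501, chr15:101828827-101828886, minus strand: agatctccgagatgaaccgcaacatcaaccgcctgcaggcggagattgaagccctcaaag
Krt18, probe A_51_P324814, chr15:101862341-101862400, plus strand: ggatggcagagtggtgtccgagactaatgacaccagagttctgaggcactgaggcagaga
Krt19, probe A_51_P356642, chr11:100002392-100002451, minus strand: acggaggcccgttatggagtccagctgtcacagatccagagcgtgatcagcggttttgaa
Krt7, probe A_52_P410685, chr15:101253718-101253777, plus strand: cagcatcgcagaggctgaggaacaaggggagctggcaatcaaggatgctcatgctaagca
Spp1, probe A_55_P2085142, chr5:104868502-104868561, plus strand: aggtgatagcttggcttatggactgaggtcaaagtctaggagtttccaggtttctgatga

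Probes of different keratin members share no run longer than 7 bases, and 0 other probes of the array share a run of 20 bases with any of the 11 member probes. Probes were compared with probes and not with whole transcripts, so binding to the transcript of another keratin was not tested. The other Krt8 probe, A_66_P128079 (chr15:101827138-101827197, minus strand), is the brighter of the pair. It carries the Krt8 levels and tests below unless the second probe, A_55_P2128501, is named. Cftr also has 2 probes, of which A_55_P2117511 was well above background on 1 of 13 arrays and was not used.

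Before the members, 4 arrays need naming. Transcripts of pancreatic acinar cells, which make digestive enzymes, were abundant on HFHS replicates 3, 4 and 5, where the mean level of 12 acinar genes was 4.97, 3.74 and 7.04. It was -3.11 and -3.31 on HFHS replicates 1 and 2, and between -3.85 and -1.84 on the 8 arrays of ST pollutants and ST vehicle. The protease gene Prss2, for example, had 4.87, 3.85 and 7.23 on those 3 arrays and at most -3.05 on any other. ST pollutants replicate 2 held 59 genes more than 4-fold above every other array, against at most 20 on any other array, namely HFHS replicate 5. They were led by Gpx3, Miox, Fxyd2 and Dnase1, and included Cdh16, a cadherin of kidney tubules, and Slc34a1, a phosphate carrier of the kidney. Over 10 kidney tubule genes, a list drawn up after this was seen, the mean level was 2.38 on that array and lay between -4.13 and -3.37 on the other 12. The defining tubule genes Umod and Slc12a3 had 4.11 and -0.83 there, and at most -4.39 and -6.25 elsewhere. Over 8 adrenal genes, also listed afterwards, the mean level was 1.43 on that array and between -4.06 and -3.35 on the others. Since ducts of the pancreas and tubules of the kidney use several of the bile duct genes, results are also given without these arrays. Leaving them out does not remove skeletal muscle transcripts. The mean level of 8 muscle genes was -0.79, -3.90, -1.04 and -3.49 on ST pollutants replicates 1, 3, 4 and 5. It was -1.21, -4.18 and -1.92 on the ST vehicle arrays, and -4.55 and -5.47 on HFHS replicates 1 and 2.

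**Figure D1:**
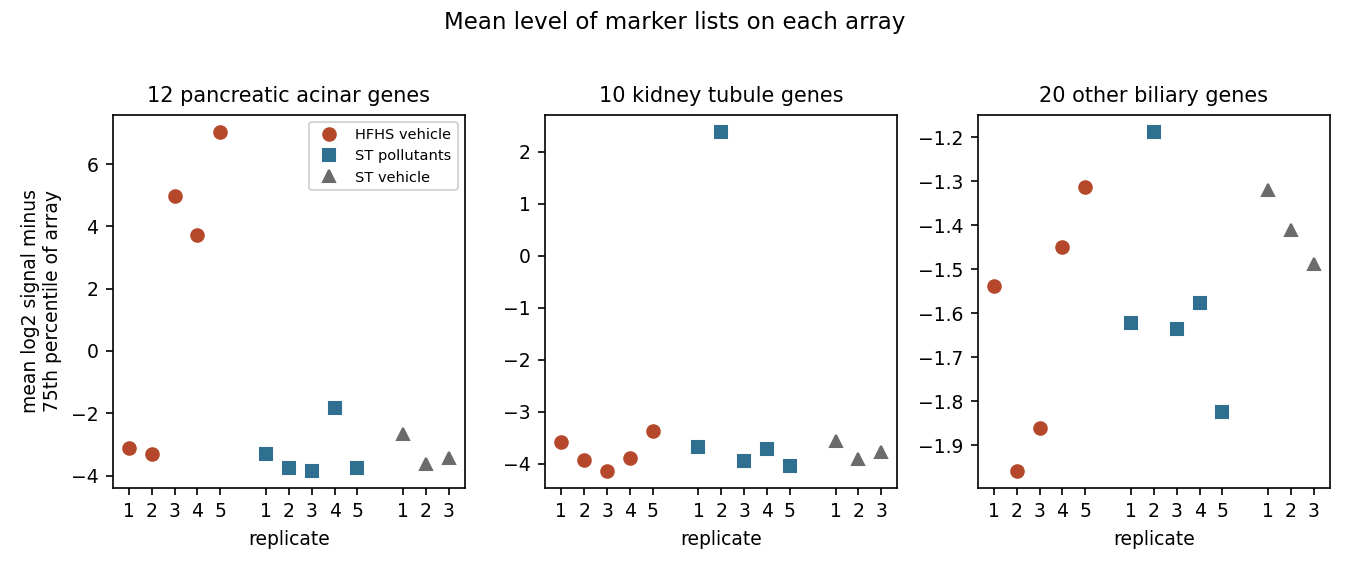
Mean level (vertical axes, log2 signal minus the 75th percentile of the array) of 12 pancreatic acinar genes, 10 kidney tubule genes and 20 other biliary genes on each array, ordered by group and replicate (horizontal axes). HFHS replicates 3, 4 and 5 stand apart for the acinar genes (3.74 to 7.04) and ST pollutants replicate 2 for the kidney tubule genes (2.38).

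Krt23 was the member with the widest spread between groups, highest on HFHS, intermediate with pollutants and lowest with ST vehicle. Its level was 1.90, 3.04, 2.36, 2.37 and 2.26 on the HFHS arrays. It was 1.33, 1.48, 1.26, 1.26 and 2.03 on the ST pollutants arrays. It was 0.47, 0.67 and -0.80 on the ST vehicle arrays. The HFHS and the ST pollutants arrays all lay above the 3 ST vehicle arrays, while HFHS replicate 1 lay below ST pollutants replicate 5. Group means were 2.38 ± 0.41 in HFHS (SD, n = 5), 1.47 ± 0.33 in ST pollutants (SD, n = 5) and 0.11 ± 0.80 in ST vehicle (SD, n = 3).

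The difference of HFHS minus ST vehicle in Krt23 was 2.27 ± 0.33 (log2, standard error of the model), or 4.83-fold, with a 95% interval of 1.56 to 2.99. Krt23 was among the members because of this difference, so its place past the threshold of an adjusted p under 0.05, as the 1 such member, is part of how it was chosen. Of all genes 0.687% were past it, and 0.236% were past it and higher. On the 3 slides that hold both groups it was higher in HFHS each time, by 1.43 to 3.06. Without HFHS replicates 3, 4 and 5 and ST pollutants replicate 2 the difference was 2.36, as large as with them, although no member was past the threshold in that fit.

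ST pollutants livers had 2.57-fold more Krt23 signal than ST vehicle livers, a log2 difference of 1.36 ± 0.33 with a 95% interval of 0.65 to 2.08. This did not pass the test over all genes (limma, adjusted p = 0.0781). It was higher with pollutants on all 3 shared slides, by 0.81 to 2.84. It passed when slide was fitted as a random block in limma (difference 1.40, adjusted p = 0.0393) and not as a fixed block (1.44, adjusted p = 0.144), and it was 0.90 without ST vehicle replicate 3. HFHS livers had 1.88-fold more Krt23 signal than ST pollutants livers, a log2 difference of 0.91 ± 0.28 (limma, adjusted p = 0.104). HFHS was the higher of the 2 on each of the 5 slides, by 0.23 to 1.56. The 3 contrasts share arrays, so they are not independent of each other. The choice of members with HFHS values known thus also reaches the contrasts with ST pollutants. Their p-values for the members, here and below, are to be read with that limit.

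**Figure D2:**
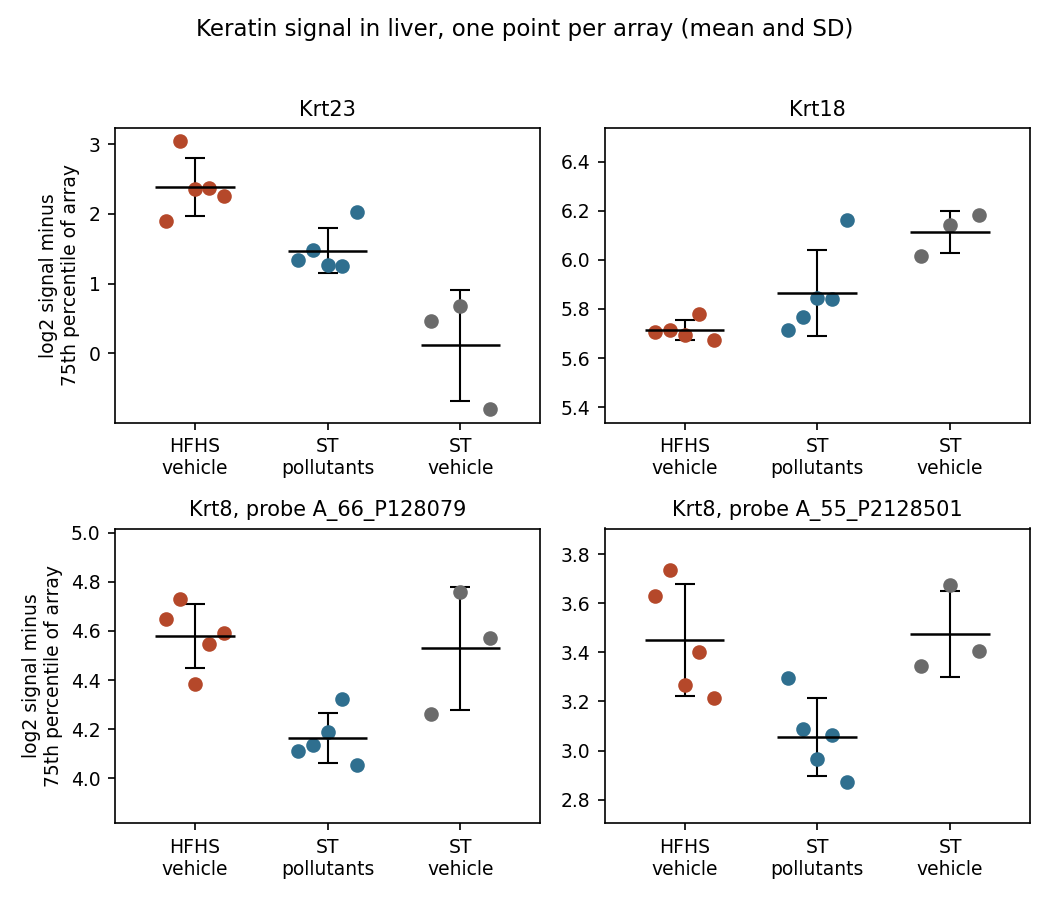
Level (vertical axes, log2 signal minus the 75th percentile of the array) of Krt23, Krt18 and both Krt8 probes, one point per array, with the group mean (long bar) and SD (capped bar). Mean Krt23 is highest in HFHS and lowest in ST vehicle, mean Krt18 is ordered the opposite way, and both Krt8 probes are lowest with pollutants. The vertical ranges differ between panels.

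The hepatocyte pair Krt8 and Krt18 was ordered otherwise over the groups. Krt8, the type II partner, had levels of 4.65, 4.73, 4.38, 4.55 and 4.59 on the HFHS arrays, against 4.11, 4.14, 4.19, 4.32 and 4.05 on the ST pollutants arrays. The ST vehicle arrays had 4.26, 4.76 and 4.57. HFHS and ST pollutants did not overlap for this probe, and ST vehicle replicate 1 lay with the pollutant arrays while the other two lay with HFHS.

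Krt8 was 1.33-fold higher in HFHS than in ST pollutants, a log2 difference of 0.42 ± 0.10 (limma, adjusted p = 0.0413), and it was higher on all 5 slides, by 0.19 to 0.59. It was the 1 of 8 tested members called in this contrast, in which 3.87% of all genes were called and 1.57% were called higher. With slide as a block in limma the adjusted p was 0.0155 (random) and 0.0547 (fixed). The call was lost in 16 of 27 alternative settings, while the difference stayed between 0.26 and 0.53. It was lost without any one of HFHS replicates 1, 2, 4 and 5, ST pollutants replicates 1, 2, 3 and 5 and ST vehicle replicate 3, with an adjusted p of 0.112 at most in those fits. The second Krt8 probe gave 0.39 ± 0.12 for the same contrast (limma over all probes, adjusted p = 0.0982) and was likewise higher in HFHS on 5 of 5 slides. Its groups overlapped, with a lowest level of 3.21 in HFHS and a highest of 3.30 in ST pollutants. ST pollutants minus ST vehicle was -0.37 ± 0.12 for Krt8 (limma, adjusted p = 0.189), and HFHS minus ST vehicle was 0.05 ± 0.12.

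Krt18, the type I partner of Krt8 in hepatocytes, had levels of 5.71, 5.72, 5.69, 5.78 and 5.67 on the HFHS arrays. The ST pollutants arrays had 5.71, 5.77, 5.84, 5.84 and 6.16, and the ST vehicle arrays had 6.02, 6.14 and 6.18. All 5 HFHS arrays lay below the 3 ST vehicle arrays, and ST pollutants replicate 5 alone reached the ST vehicle range. HFHS minus ST vehicle was -0.40 ± 0.10 for Krt18, 1.32-fold lower in HFHS, with a range of -0.51 to -0.31 within slides. ST pollutants minus ST vehicle was -0.25 ± 0.10 (limma, adjusted p = 0.307) and HFHS minus ST pollutants was -0.15 ± 0.08 (limma, adjusted p = 0.383).

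The 2 keratins of bile duct cells were dimmer on average in HFHS than in ST vehicle, with overlap (for Krt7 the sign turned with normexp background correction, to 0.33). Krt19, the type I keratin of ducts, had -1.47, -2.69, -2.17, -1.43 and -2.45 in HFHS. It had -2.74, -2.04, -1.54, -1.50 and -1.53 in ST pollutants and -0.90, -1.002 and -1.98 in ST vehicle. Both challenged groups overlapped ST vehicle only through its replicate 3. For Krt19, HFHS minus ST vehicle was -0.75 ± 0.38. The difference of ST pollutants minus ST vehicle was -0.58 ± 0.38 (limma, adjusted p = 0.643), with -0.92 to -0.36 when single arrays were left out, and HFHS minus ST pollutants was -0.17 ± 0.33 (limma, adjusted p = 0.896).

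Krt7, the type II keratin of ducts, had -4.39, -4.34, -3.65, -4.14 and -4.37 in HFHS. It had -3.71, -2.10, -3.17, -3.81 and -4.40 in ST pollutants and -3.70, -3.76 and -4.03 in ST vehicle. ST pollutants replicate 2, the array with kidney and adrenal transcripts, was the highest of the 13. HFHS minus ST vehicle was -0.35 ± 0.39 for Krt7, and -0.54 without HFHS replicates 3, 4 and 5. ST pollutants minus ST vehicle was 0.39 ± 0.39 (limma, adjusted p = 0.810), 0.06 without that array and 0.63 without ST pollutants replicate 5, and HFHS minus ST pollutants was -0.74 ± 0.34 (limma, adjusted p = 0.272) and was -0.41 without it.

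**Figure D3:**
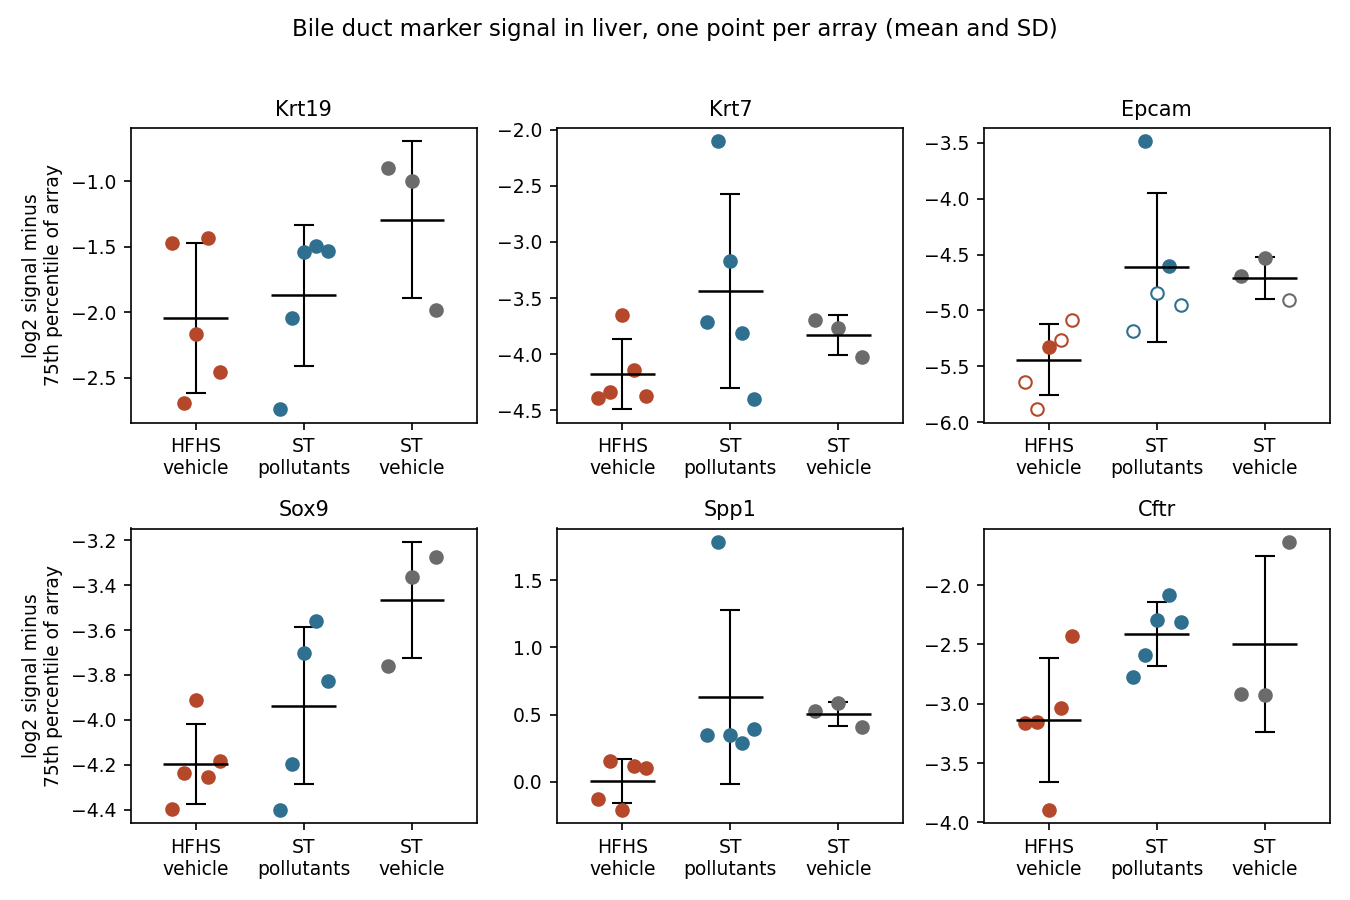
Level (vertical axes, log2 signal minus the 75th percentile of the array) of Krt19, Krt7, Epcam, Sox9, Spp1 and Cftr, one point per array, with the group mean (long bar) and SD (capped bar). Open points are arrays on which the probe was not well above background. ST pollutants replicate 2 is the highest point for Krt7 (-2.10), Epcam (-3.49) and Spp1 (1.78). The vertical ranges differ between panels.

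Osteopontin, encoded by Spp1, had levels of -0.13, 0.16, -0.21, 0.12 and 0.10 in HFHS. It had 0.35, 1.78, 0.35, 0.29 and 0.39 in ST pollutants and 0.52, 0.58 and 0.40 in ST vehicle. All 5 HFHS arrays lay below the other 8, and ST pollutants replicate 2 stood far above its group. HFHS minus ST vehicle was -0.50 ± 0.29 for Spp1, or 1.41-fold lower, and was between -0.65 and -0.30 within slides. HFHS minus ST pollutants was -0.62 ± 0.25 (limma, adjusted p = 0.199) and was -0.34 without ST pollutants replicate 2. ST pollutants minus ST vehicle was 0.13 ± 0.29 (limma, adjusted p = 0.950) and changed sign, to -0.16, without that array. What the kidney and adrenal transcripts of that array contribute to its Spp1, Krt7 and Epcam signal was not tested.

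Sox9, which directs bile duct formation, had -4.40, -4.24, -3.91, -4.25 and -4.18 in HFHS (mean of 10 spots per array). It had -4.40, -4.20, -3.70, -3.56 and -3.83 in ST pollutants and -3.76, -3.36 and -3.27 in ST vehicle. All HFHS arrays lay below all ST vehicle arrays. HFHS minus ST vehicle was -0.73 ± 0.19 for Sox9, 1.66-fold lower, and was between -0.91 and -0.64 within slides. The value of this dim probe depended on the background correction, being 0.16 with normexp correction and -0.27 in the authors' deposited normalized values. ST pollutants minus ST vehicle was -0.47 ± 0.19 (limma, adjusted p = 0.325) and HFHS minus ST pollutants was -0.26 ± 0.16 (limma, adjusted p = 0.465).

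Cftr, the chloride channel, had -3.16, -3.16, -3.89, -3.03 and -2.43 in HFHS. It had -2.78, -2.59, -2.30, -2.08 and -2.31 in ST pollutants and -2.92, -2.93 and -1.63 in ST vehicle. HFHS lay below ST pollutants on 5 of 5 slides, with differences of -1.60 to -0.12, with the groups overlapping through HFHS replicate 5. HFHS minus ST pollutants was -0.72 ± 0.29 (limma, adjusted p = 0.204), and ST pollutants minus ST vehicle was 0.08 ± 0.34 (limma, adjusted p = 0.978). The Cftr difference of HFHS minus ST vehicle was -0.64 ± 0.34, and it was -0.21 without ST vehicle replicate 3, the highest Cftr array. Over 27 alternative settings it ranged from -0.86 to 0.00083. HFHS minus ST pollutants ranged from -0.90 to -0.032 over the same settings.

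Epcam was well above background on 1 of 5 HFHS arrays, 2 of 5 ST pollutants arrays and 2 of 3 ST vehicle arrays. Its signal was -5.64, -5.88, -5.33, -5.27 and -5.08 in HFHS, -5.19, -3.49, -4.84, -4.60 and -4.96 in ST pollutants and -4.69, -4.53 and -4.90 in ST vehicle. On ST pollutants replicate 2 the value of -3.49 lay clear of -5.18, the dimmest signal that counted as well above background there. The other values lie near the dimmest such signal, and no fold is given.

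**Figure D4:**
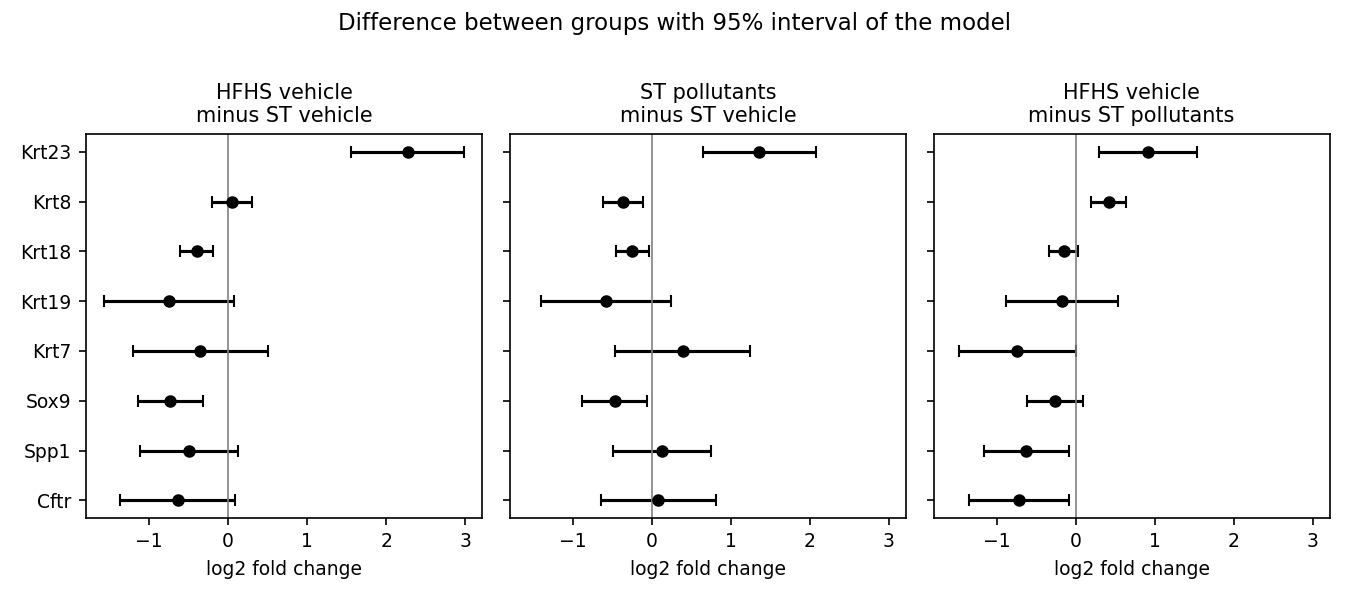
Log2 fold change (horizontal axes) of the 8 tested members in the 3 contrasts, with the 95% interval of the model as bars. Krt23 lies right of 0 in all 3 panels (2.27, 1.36 and 0.91), and in the HFHS minus ST vehicle panel the other 7 members lie between -0.75 and 0.05.

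Among the 5 tested bile duct markers, HFHS was below ST vehicle for all 5, with a median log2 difference of -0.64, against a median of -0.02 over all genes tested. With normexp background correction 2 of the 5 were below ST vehicle, Krt19 and Spp1, and the median was 0.00083, with 0.086 over all genes. The same 5 were also below ST pollutants, with a median of -0.62, but 2 of 5 with normexp correction, with a median of 0.015 and 0.094 over all genes. That median was -0.34 without ST pollutants replicate 2 and -0.44 without all 4 of the arrays named above, with 5 of 5 still lower in HFHS. For ST pollutants minus ST vehicle the median was 0.083, and -0.16 without ST pollutants replicate 2. None of the 5 passed between ST pollutants and either other group. Against ST vehicle, the contrast known at the choice, Sox9 in HFHS was past the threshold with slide as a block and Spp1 without ST pollutants replicate 2. Leaving out HFHS replicates 3, 4 and 5 and ST pollutants replicate 2 kept the differences from ST vehicle between -0.85 and -0.49. In whole liver, fewer cells of a type and less RNA per cell cannot be told apart. Groups that do not overlap were found for 4 members in HFHS against ST vehicle: Krt23 higher, and Krt18, Sox9 and Spp1 lower, where 3.82% of all genes were higher and 5.33% lower without overlap. Krt23 was also higher without overlap in ST pollutants than in ST vehicle, as were 3.93% of all genes. Between HFHS and ST pollutants, Krt8 by its brighter probe was higher and Spp1 lower without overlap, as were 2.74% and 4.19% of all genes. No member was called between ST pollutants and ST vehicle, where 0.984% of all genes were called. At an unadjusted p under 0.05, limma had 4 of the 8 there, Krt23 higher and Krt8, Krt18 and Sox9 lower with pollutants, against 12.2% of all genes. That contrast shares the ST vehicle arrays with the contrast known at the choice. The 2 shares are therefore a description and not a test of the members as a set.

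**Figure D5:**
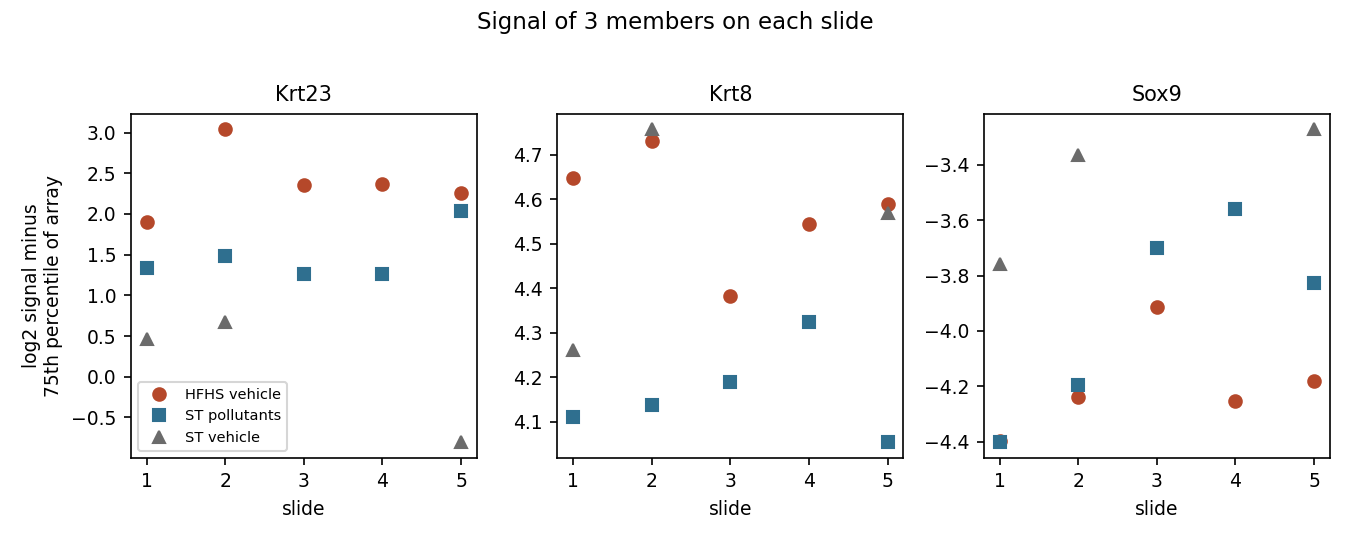
Level (vertical axes, log2 signal minus the 75th percentile of the array) of Krt23, Krt8 and Sox9 on each of the 5 slides (horizontal axes), 1 point per array. On every slide Krt23 and Krt8 are higher in HFHS than in ST pollutants, and Sox9 is highest in ST vehicle on the 3 slides that hold it.

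Of 20 other markers of bile duct cells, 18 were tested and 0 were called in any of the 3 contrasts. HFHS minus ST vehicle was negative for 16 of the 18, with a median of -0.14 (8 of 18 and 0.019 with normexp correction), and the medians were -0.07 for ST pollutants minus ST vehicle and -0.03 for HFHS minus ST pollutants. Without ST pollutants replicate 2, ST pollutants minus ST vehicle was negative for 15 of the 18, against 11 with it, and the median was -0.19. Without HFHS replicates 3, 4 and 5 the HFHS medians were -0.23 against ST vehicle and -0.25 against ST pollutants. With ST pollutants replicate 2 left out as well, the median against ST pollutants was -0.14. Of 10 hepatocyte genes, 9 were also negative for HFHS minus ST vehicle, with a median of -0.15. Of the 4 brightest of the 18 other bile duct markers, the water channel Aqp1 had -0.28 ± 0.11 for HFHS minus ST vehicle and the anion exchanger Slc4a2 had -0.06 ± 0.13. Bicc1, an RNA-binding protein, had -0.32 ± 0.22, and the mucin-like Dmbt1 had 0.09 ± 1.21, with HFHS levels between -1.76 and 4.72. Bicc1 had 1.51 on ST pollutants replicate 2 and at most 0.78 on the other arrays.

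Of the 47 other keratin genes on the array, 22 were tested and 1 was called, in 1 contrast. That contrast was HFHS minus ST pollutants, in which 3.87% of all genes were called, so 1 of 22 is near the share of all genes. Krt222 had 1.49, 1.34, 1.07, 0.82 and 1.47 in HFHS, against -0.38, 0.01, 0.73, 0.08 and -0.11 in ST pollutants, and 0.48, 0.35 and 1.06 in ST vehicle. HFHS minus ST pollutants was 1.17 ± 0.21 for Krt222 (limma, adjusted p = 0.0102), and neither contrast with ST vehicle passed. Krt222 was higher in HFHS without overlap, as were 2.74% of all genes. Of the brightest others, Krt80 had -0.18 ± 0.35, Krt85 had 0.06 ± 0.13, Krt16 had -0.22 ± 0.13 and Krt73 had -0.0033 ± 0.12 for HFHS minus ST vehicle.

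Partners that anchor keratin filaments at desmosomes were measured for 8 of 8 genes and 0 were called in any contrast. Plakophilin 2 (Pkp2) had 1.91, 1.88, 2.04, 1.70 and 1.64 in HFHS, and 2.31, 2.10, 1.81, 1.84 and 2.08 in ST pollutants, against 2.45, 2.54 and 2.22 in ST vehicle. Its HFHS minus ST vehicle difference was -0.57 ± 0.13, lower without overlap, as were 5.33% of all genes. The linker plectin (Plec) had 0.09 ± 0.17, desmoglein Dsg2 had 0.06 ± 0.14 and desmoplakin (Dsp) had -0.07 ± 0.10. Of the Notch and Hippo genes, pathways that direct bile duct fate, 11 of 12 were tested and 0 were called. Yap1, the effector of Hippo signalling, had -0.04 ± 0.10, Notch2 had 0.09 ± 0.10, the shared Notch effector Rbpj had 0.0015 ± 0.13 and Notch1 had -0.45 ± 0.26 for HFHS minus ST vehicle. These are the brightest of the list. The widest difference in that contrast was -0.76 ± 0.27, in Hes1, where 6 of the 11 were negative and 5 positive. For ST pollutants minus ST vehicle Hes1 had -0.93 ± 0.27 (limma, adjusted p = 0.152), where 4 were negative and 7 positive.

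The mean level of 10 hepatocyte genes, among them albumin, was 6.52 to 6.81 in HFHS, 6.70 to 6.85 in ST pollutants and 6.78 to 6.87 in ST vehicle. Of the lists for other cells, 10 of 12 acinar genes were tested and 0 passed in any contrast, with a median HFHS minus ST vehicle difference of 4.35, all 10 being higher in HFHS. No gene was called among 10 macrophage and Kupffer, 9 stellate and fibroblast, 5 lipid-associated macrophage, 5 pancreatic endocrine, 3 mesothelial, 6 skeletal muscle, 5 adipocyte, 6 kidney tubule and 4 adrenal genes tested. Skeletal muscle genes had a mean of -5.47 to -0.76 in HFHS, -3.90 to -0.41 in ST pollutants and -4.18 to -1.21 in ST vehicle, so they varied between arrays of each group. For HFHS minus ST vehicle all 6 tested muscle genes were negative, with a median of -2.28. Adipocyte genes had -4.34 to -3.34 in HFHS, -4.47 to -1.30 in ST pollutants and -4.16 to -2.26 in ST vehicle, and all 5 tested were negative for HFHS minus ST vehicle, with a median of -0.61. The part of the muscle, adipocyte and hepatocyte differences in those of the members was not tested. Of 4 tested gut genes 1 was called: Fabp2, which encodes an intestinal fatty acid binding protein, was higher in HFHS than in ST pollutants by 0.90 ± 0.20 (limma, adjusted p = 0.0293). In that contrast 3.87% of all genes were called. The gut genes Cdh17, Cdx2 and Krt20 were well above background on 0 arrays.

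The genes whose levels followed a member most closely over the 13 arrays were found by Pearson's r, as a description, since the arrays share groups and slides. For Krt23 they were Miga2 (r = 0.910), a protein of mitochondrial fusion, Atp6v0a2 (r = 0.900), a proton pump subunit, Ndufaf4 (r = 0.899), 4930525G20Rik (r = 0.899) and Rcan1 (r = 0.885), an inhibitor of calcineurin. For Krt8 they were Ints1 (r = 0.952) and Ola1 (r = 0.909), for Krt18 Smad7 (r = 0.881) and Traf3ip2 (r = 0.862), and for Krt19 B4galnt2 (r = 0.880) and Lhfpl2 (r = 0.836). For Krt7 they were Sema5a (r = 0.934) and Crym (r = 0.926), and for Spp1 Tesc (r = 0.966) and ccdc198 (r = 0.958). For Sox9 they were Cxxc5 (r = 0.949) and Ubald2 (r = 0.940), and for Cftr Notch1 (r = 0.985) and Gm5590 (r = 0.975). Among the members, Krt23 ran against Sox9 (r = -0.71) and Krt18 (r = -0.68), and Sox9 ran with Krt18 (r = 0.79). Spp1 and Krt7 had r = 0.80, a pair for which ST pollutants replicate 2 was the highest array in both. The gene ccdc198, close to Spp1, was also highest on that array, with 1.69 there and at most -1.27 on any other. What that array, with its kidney and adrenal transcripts, adds to the r values of Spp1 and Krt7 was not tested.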

How the data were processed

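The starting point was the spot intensity on a linear scale, as deposited; per the file headers, Agilent Feature Extraction 11.5.1.1 produced it. The authors also deposited log2 normalized values of 26082 probes, for which the submitters' processing notes name limma. These served as an alternative.

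The processed signal was log2-transformed, averaged over a probe's spots with outlier spots left out (128 missing values among genes tested), and reduced by each array's 75th percentile (782 to 1354 intensity units). Probes were kept where all arrays of 1 or more groups had them well above background (25030), and the brightest probe stood for a gene. limma 3.58.1 in R 4.3.3 fitted the 3 groups over 13 arrays, two-sided, with Benjamini-Hochberg adjustment over 19514 genes. The pipeline was tested on simulated data. Between 62.8% and 69.5% of probes were well above background, and same-group arrays correlated at 0.977 to 0.992. The number of arrays, above all the 3 ST vehicle arrays, limits the precision.

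The members and gene lists were chosen with earlier results of these data known, and the kidney and adrenal lists after the arrays were seen. Named genes are the members, called genes and up to the 4 brightest of the main lists, and the genes most like each member. Alternatives covered normalization, background correction, filter, probe choice, slide and replicate blocks, the authors' values and left-out arrays. Sequences and positions are those of the deposited files.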

Additional observations from a re-analysis of the deposited data

Results flagged for a closer look

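Krt23 on ST pollutants replicate 5 had a level of 2.03, and the nearest other array of its group had 1.48. The gap was 0.711 of the group's range, past Dixon's limit for 5 samples. Spp1 on ST pollutants replicate 2 had 1.78 against 0.39 on the nearest array of its group, a gap of 0.929 of the range. This is the array that also held kidney and adrenal transcripts. Chance flags about 1 in 20 groups, and 22 groups were examined.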

How the results depend on the processing

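Krt23 kept its direction in all 27 alternatives of each contrast, with 1.81 to 2.57 for HFHS minus ST vehicle, 0.90 to 1.64 for ST pollutants minus ST vehicle and 0.75 to 1.05 for HFHS minus ST pollutants. Several alternatives could not move these differences, so the count of 27 overstates what was examined. The choices of filter and probe return the same Krt23 values, as does leaving out arrays of the group not compared. For HFHS minus ST vehicle, the contrast known when the members were chosen, the 1 member past the threshold is no test. The count was 2 (Krt23 and Sox9) with slide as a fixed block, 3 with slide as a random block (Krt18 as well), and 0 with only the 2 groups fitted, without slide 1, without HFHS replicates 3, 4 and 5, or without these and ST pollutants replicate 2. It ranged from 1 to 2 when single arrays were left out, Spp1 joining without ST pollutants replicate 2 and Krt18 without ST pollutants replicate 5. For ST pollutants minus ST vehicle, 0 members were called, and 1 with slide as a random block. For HFHS minus ST pollutants 1 member was called, and 0 with normexp correction, without the filter on dim probes, with slide as a fixed block, with the replicate block, without slide 1, without HFHS replicates 3, 4 and 5, or without these and ST pollutants replicate 2. It was 0 to 1 when single arrays were left out. Krt23 passed in this contrast without ST vehicle replicate 3 (adjusted p = 0.0387). Leaving out an array of the group not compared can change the model's spread and the adjusted p, but not the difference. The cause of the other shifts was not tested. The setting without HFHS replicates 3, 4 and 5 and ST pollutants replicate 2 was chosen after seeing the data.

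Some signs turned. Spp1 in ST pollutants minus ST vehicle was -0.16 without ST pollutants replicate 2, and also with HFHS replicates 3, 4 and 5 left out, and it ranged from -0.16 to 0.21 when single arrays were left out. Cftr in that contrast was -0.12 with the replicate block, -0.13 and -0.14 without ST vehicle replicate 1 and 2, and -0.037 without slide 1, with a range of -0.14 to 0.51 over single arrays left out. With normexp correction HFHS minus ST pollutants became 0.015 for Krt19, 0.077 for Krt7 and 0.40 for Sox9. Same-numbered arrays on 1 slide deviated together in 8 of 9 pairs (r from -0.022 to 0.56), and the 2 same-numbered pairs on different slides had r of -0.15 and -0.17. Over all numbers, 6 of 13 arrays correlated best with their own number, and the random block correlation of slide was 0.278. The number by itself is not shown to pair arrays. The replicate block left Krt8 in HFHS minus ST pollutants at an adjusted p of 0.0693.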
